A study of Mus musculus with 12 samples.

Results

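The comparison described here set the livers of Lats2-CKO mice against those of wild-type mice on normal diet, with 3 arrays per genotype out of 12 arrays in the series. All mice were male and were 8 weeks old when the feeding began, and both normal-diet groups ate a Harlan chow free of cholesterol for 9 weeks. The genotype tag of the mutant group reads Lats2-KO, while its titles read Lats2-CKO, and the labels name neither the deleted exons nor a driver or cell type for the deletion. The other 6 arrays, 3 of each genotype on a Paigen diet with 1.25% cholesterol, entered the fit for its estimate of the spread and serve as a second pair of groups at the end. The members were the arrays so labelled, with every label kept as given, and the comparison was described over 22180 genes, those measured by a probe set with a single gene symbol.

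LATS2 is a kinase of the Hippo pathway. With its relative LATS1 it phosphorylates the coactivators YAP and TAZ, which keeps them out of the nucleus and away from the TEAD factors whose target genes, such as Ccn1 and Ccn2, serve as readouts of YAP and TAZ activity. In the liver the pathway is known for restraining organ growth and bile duct fate in hepatocytes, and LATS2 has also been tied to p53 and to sterol metabolism through the SREBP factors. The comparison asks which genes differed in a liver without the dietary challenge when Lats2 had been targeted.

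The values were log2 expression, on which a step of 1 is a 2-fold difference, and the 30th percentile of all values, 3.05, is used below as the level under which a gene is called dim. Changes are given as Lats2-CKO minus wild type with the standard error of the fit, and a gene was called at an adjusted p under 0.05. All 9 measured hepatocyte markers were above the dim level, and their mean level was 11.56 to 11.77 on the wild-type arrays and 11.65 to 11.80 on the Lats2-CKO arrays. Wild-type array 3 stood apart from its group: its mean correlation with the other wild-type arrays was 0.981, and the array nearest to it was a Lats2-CKO array on high-cholesterol diet, at r = 0.993. The 12 arrays also fell into 2 sets by their median value, with arrays 1 and 2 of both normal-diet groups in the higher set and array 3 of both in the lower one, so that the sets were balanced between the genotypes. The labels number biological replicates, so the spread is that between mice and includes the handling of their arrays.

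Lats2 itself gives only a weak check of the labels. It read 5.15, 5.14 and 5.69 on the wild-type arrays and 4.37, 4.76 and 4.79 on the Lats2-CKO arrays. All 3 Lats2-CKO arrays were below all 3 wild-type arrays, and the change was -0.68 ± 0.23 with an adjusted p of 0.35, so Lats2 was not among the genes called. Without wild-type array 3 the change was -0.50. On high-cholesterol diet, in other mice, it was -0.77 ± 0.23. Whether the probe set lies inside the deleted part is not known, so this level does not measure how much of the gene was lost. Among the 20 measured genes next to Lats2 in chromosome order, 10 on each side, 2 had an unadjusted p under 0.05, a share near the 8.99% of all genes: Cryl1, at -0.87 ± 0.34, and Xpo4, at 0.44 ± 0.18, both named after their values were seen.

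3 genes rose in the Lats2-CKO livers on normal diet and none fell, which is 0.0135% of the genes tested. They were Capn8, Zfand4 and the clone-named E030018B13Rik. Leaving out Lats2-CKO array 1 gave 17 calls, Lats2-CKO array 2 gave 7 and wild-type high-cholesterol array 1 gave 8. In each of the 3 genes, all mutant mice were more than a log2 unit above all wild-type mice, and every high-cholesterol array of either genotype lay below the mutants on normal diet.

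Capn8 encodes a calcium-dependent protease of the calpain family, known from mucous cells of the stomach. It read 3.71, 3.58 and 3.23 on the wild-type arrays and 6.40, 6.66 and 6.14 on the Lats2-CKO arrays. The wild-type values were near the dim level and the mutant values far above it, with no overlap. Capn8 rose by 2.89 ± 0.16, which is 7.41-fold, at an adjusted p of 3.84e-05. The change was 2.88 between the arrays of the higher set, 2.91 between those of the lower set, and 2.75 ± 0.16 without wild-type array 3. It was called in each of the 27 fits made, where its change ran from 2.75 to 3.02.

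Zfand4 encodes a protein with an AN1-type zinc finger and a ubiquitin-like domain. It read 5.33, 5.09 and 5.05 on the wild-type arrays and 6.56, 6.61 and 6.99 on the Lats2-CKO arrays. The groups did not overlap, and the rise was 1.56 ± 0.14, or 2.96-fold, at an adjusted p of 0.0025. Within the array sets it was 1.37 (higher) and 1.94 (lower). The call ended, with the direction kept, when the fit used only the 6 normal-diet arrays (adjusted p = 0.10), only the 5 of them other than wild-type array 3 (adjusted p = 0.12), or left the variance unmoderated (adjusted p = 0.058).

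E030018B13Rik has only a clone name, and the naming rule left such genes out, so it is described here as a choice made after its values were seen. It read 3.76, 3.69 and 3.01 on the wild-type arrays and 7.24, 6.53 and 5.999 on the Lats2-CKO arrays. The lowest mutant value was more than 2 log2 units above the highest wild-type value. The gene rose by 3.10 ± 0.29, or 8.60-fold, at an adjusted p of 0.0025, and its call too ended with only the 6 normal-diet arrays in the fit (adjusted p = 0.14), only those 5 (adjusted p = 0.13) or without moderation (adjusted p = 0.087). Within the array sets the change was 3.16 (higher) and 2.99 (lower). The 250 bases before its start are printed below. They run on the plus strand of GRCm38.p6, at chr7:63916607-63916856, and come from RefSeq.

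E030018B13Rik: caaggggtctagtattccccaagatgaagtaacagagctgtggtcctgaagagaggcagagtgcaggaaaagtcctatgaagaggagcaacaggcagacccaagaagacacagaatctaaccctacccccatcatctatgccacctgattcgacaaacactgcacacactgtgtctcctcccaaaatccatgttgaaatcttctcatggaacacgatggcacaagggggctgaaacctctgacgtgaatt

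The TEAD word GGAATG, or CATTCC on the other strand, which would be in capitals, is not in that window. It was not found in the windows of Capn8 or Zfand4 either. Over all 32851 windows of this length in the table, 12.6% hold the word.

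**Figure D1:**
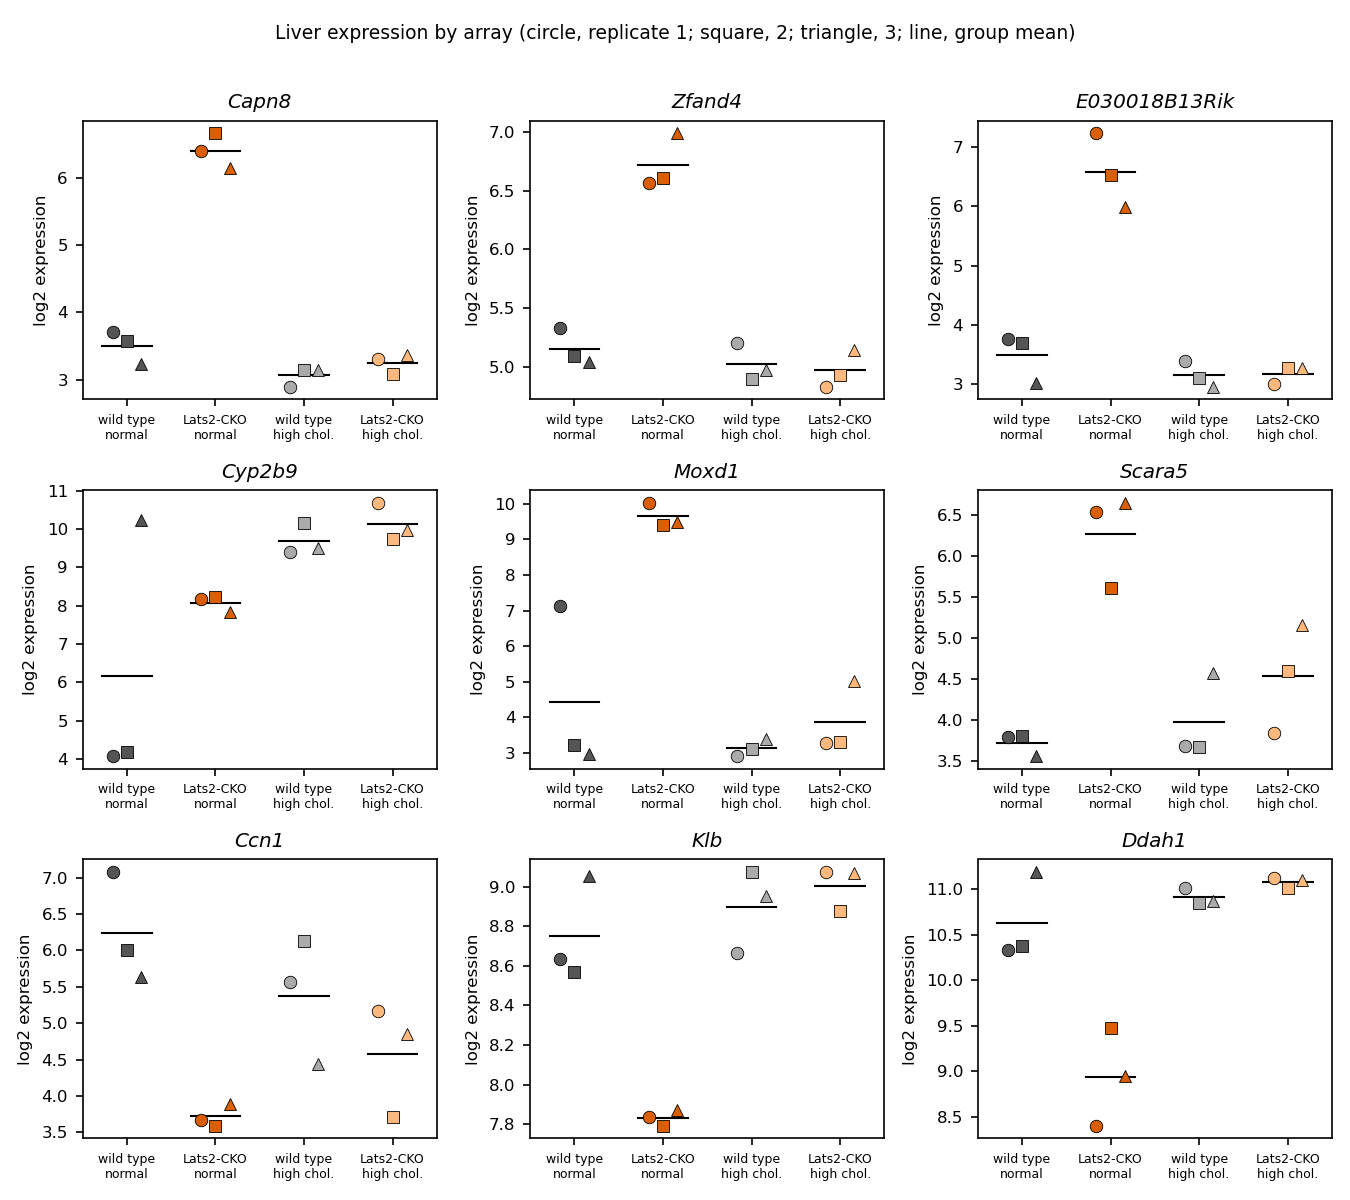
Log2 expression of 9 genes on the 12 arrays, by genotype and diet, with a marker shape for each replicate and a line at the group mean. The Lats2-CKO normal-diet arrays of Capn8, Zfand4 and E030018B13Rik stand above all other arrays, and wild-type normal-diet array 3 of Cyp2b9 reads 10.24 where the other wild-type normal-diet arrays read 4.08 and 4.20.

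Short of a call, the differences were broad and leaned to lower expression in the mutants. At an unadjusted p under 0.05 stood 1993 genes, or 8.99% of those tested. Of these, 785 (3.54%) were higher and 1208 (5.45%) were lower in the Lats2-CKO livers. The groups did not overlap in 2955 genes (13.3%), higher in 1322 and lower in 1633. A change of at least 2-fold beside an unadjusted p under 0.05 was seen in 145 genes, 71 higher and 74 lower. The median change over all genes was 0.00. With 3 arrays a group and wild-type array 3 apart from the others, most of these genes cannot be told from the spread of the arrays.

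**Figure D2:**
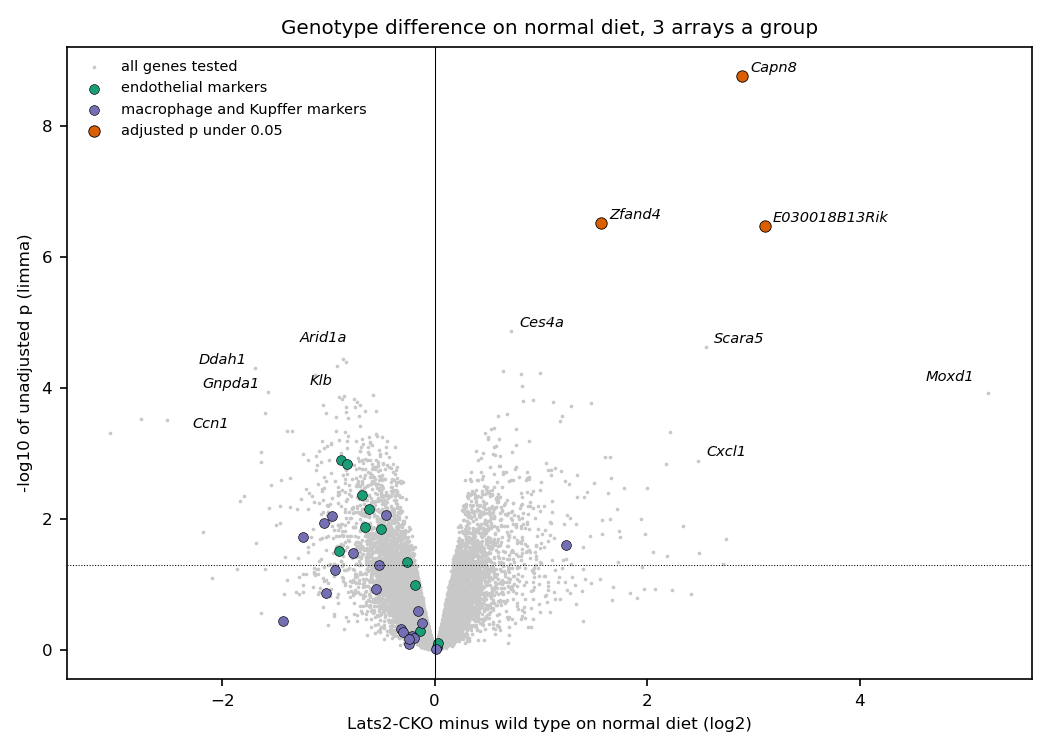
Change on normal diet (log2, Lats2-CKO minus wild type) against -log10 of the unadjusted p for all 22180 genes. The 3 called genes stand apart at the upper right, and the endothelial and macrophage markers lie mostly left of 0.

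Next in rank among the higher genes, none of them called, were Ces4a, Scara5, Usp14, Cobl, Kcnk1, Ppip5k2, Moxd1 and Taf2. Moxd1, a copper-containing monooxygenase that male mouse livers express more than female ones, had the largest difference of any gene. It read 7.12, 3.22 and 2.98 on the wild-type arrays and 10.03, 9.42 and 9.49 on the Lats2-CKO arrays. All mutants were high, and wild-type array 1 was well above the other wild-type arrays. The change was 5.21 ± 0.90 with an adjusted p of 0.14, and without wild-type array 1 it was 6.55 with an adjusted p of 0.000608. Scara5, a scavenger receptor that takes up ferritin, read 3.79, 3.80 and 3.55 against 6.54, 5.61 and 6.65. The groups were far apart, and the change was 2.55 ± 0.36 with an adjusted p of 0.10. Ces4a, of the carboxylesterase family, read 3.75, 3.75 and 3.56 against 4.36, 4.38 and 4.49, a small but even step of 0.72 ± 0.10 (adjusted p = 0.076). Usp14, a deubiquitinase of the proteasome, stood at 0.64 ± 0.10 and Ppip5k2, a kinase of inositol pyrophosphates, at 0.83 ± 0.14. Cobl, an actin nucleator, stood at 0.99 ± 0.16, the potassium channel gene Kcnk1 at 0.81 ± 0.13 and Taf2, a subunit of the general factor TFIID, at 0.93 ± 0.16. Adjusted p-values of these 5 were 0.11 to 0.14.

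Among the lower genes the leading ones were Arid1a, Mfsd11, Klb, Ddah1, Atoh8, Gnpda1, Pusl1, Zfp395, H2az2 and Wdtc1, with adjusted p-values of 0.11 to 0.14 and no overlap between the groups. Klb encodes beta-Klotho, the coreceptor through which hepatocytes receive the bile acid signal FGF15. It read 8.63, 8.57 and 9.05 on the wild-type arrays and 7.84, 7.79 and 7.87 on the Lats2-CKO arrays. The 3 mutants were nearly equal and all lower, and the change was -0.92 ± 0.14. Ddah1, which degrades the nitric oxide synthase inhibitor dimethylarginine, read 10.33, 10.38 and 11.18 against 8.40, 9.48 and 8.95. Here the mutants varied as much as the wild types did but stayed below them, at -1.69 ± 0.26. Arid1a, a subunit of the BAF chromatin remodeller, read 8.07, 8.02 and 7.80 against 7.21, 7.10 and 7.01, with a change of -0.86 ± 0.13. Atoh8, a helix-loop-helix factor, read 5.63, 5.95 and 5.41 against 4.64, 4.33 and 4.63, with a change of -1.13 ± 0.18. Gnpda1, a deaminase of the hexosamine pathway, stood at -1.57 ± 0.27 and H2az2, a variant of histone H2A, at -0.76 ± 0.13. The changes of the other 4 lay between -0.90 and -0.83.

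Leaving out wild-type array 3 kept the 3 calls and added Cyp2b9, so that 4 genes rose, or 0.018% of those tested. Cyp2b9 is a cytochrome P450 of drug and steroid metabolism, expressed more in female than in male livers. It read 4.08, 4.20 and 10.24 on the wild-type arrays and 8.16, 8.22 and 7.83 on the Lats2-CKO arrays. Wild-type array 3 was above every mutant and the other wild types far below them, so the change was 4.06 in the higher array set and -2.41 in the lower one. The high-cholesterol arrays of either genotype read 9.40 to 10.69, a range that holds wild-type array 3. Over all arrays the change was 1.90 ± 1.25 (adjusted p = 0.73), and without wild-type array 3 the gene rose by 3.94 ± 0.29 (adjusted p = 0.000858). Its relatives in the Cyp2b family are nearly identical in sequence, so its level is uncertain. In this fit 814 genes (3.67%) were higher and 1286 (5.8%) lower at an unadjusted p under 0.05. Of the 1993 genes of the full fit, 1292 were among them, which is 64.8% of the full list and 61.5% of the shorter fit's list. Both fits share 5 of the 6 normal-diet arrays.

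Other genes were nearest a call in that fit, at adjusted p-values of 0.057 to 0.079, with wild-type array 3 mostly lying toward or among the mutants. Il1r1, the signalling receptor of interleukin-1, read 7.73, 7.07 and 9.25 against 9.26, 11.03 and 10.31, and its change was 2.18 ± 0.52 with all arrays and 2.79 ± 0.42 without array 3. Igsf23, an immunoglobulin superfamily member, read 4.94, 4.54 and 8.47 against 7.62, 8.88 and 7.62, and went from 2.05 ± 0.83 to 3.30 ± 0.42. Higher by the same rule were Klhl24, Crebrf, Lurap1l and Mpp6, at 0.93, 1.54, 1.23 and 0.65 without array 3. Klhl24 read 7.75, 7.64 and 9.38 against 8.64, 8.53 and 8.70, with wild-type array 3 above every mutant. Its change was 0.36 ± 0.35 with all arrays and -0.68 in the lower array set. On the lower side, Angptl8, a hepatic hormone that follows feeding and inhibits lipoprotein lipase, read 10.17, 10.28 and 7.61 against 8.38, 7.53 and 7.91. The first 2 wild types were high and the third was among the mutants, so the change went from -1.41 ± 0.60 to -2.28 ± 0.33. Id3, an inhibitor of helix-loop-helix factors, read 5.93, 6.11 and 4.47 against 4.84, 4.44 and 4.45, a change of -1.44 ± 0.21 without array 3. Pmf1, Ppp1r3e, Tmem242, Proser2, Fam89a, Zfp9 and Zfp324 were lower as well, between -1.68 and -0.79. In Il1r1, Igsf23, Klhl24, Angptl8 and Id3, wild-type array 3 also lay within the range of the high-cholesterol arrays of both genotypes. These read 9.23 to 9.93, 7.89 to 9.03, 9.07 to 9.56, 6.90 to 8.96 and 3.96 to 4.82, in that order. In Mpp6 and Fam89a it lay just above that range.

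None of the 24 measured kinases, adaptors and coactivators of the Hippo pathway was called, and with all arrays Lats2 was the one at an unadjusted p under 0.05. Without wild-type array 3 it was not (unadjusted p = 0.0529 by limma), while Limd1, Amotl1 and Vgll4 were. Lats1, the other LATS kinase, read 7.56, 7.67 and 7.57 against 7.39, 7.78 and 7.71. Yap1, which encodes YAP, read 7.38, 7.27 and 7.07 against 7.18, 7.97 and 7.38, and Wwtr1, which encodes TAZ, 5.06, 5.03 and 5.74 against 5.11, 4.97 and 5.28. The groups overlapped in all 3, and the changes were 0.02 ± 0.10, 0.27 ± 0.20 and -0.16 ± 0.22. Limd1, Amotl1 and Vgll4, modulators of LATS or of YAP, stood at 0.25 ± 0.12, -0.32 ± 0.15 and -0.32 ± 0.18 with all arrays and at 0.37 ± 0.11, -0.45 ± 0.16 and -0.43 ± 0.19 without wild-type array 3.

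The YAP and TAZ target list split evenly, with 12 of 23 members higher, 11 lower and a median of 0.01, and none was called. Its most different member was lower in the mutants. Ccn1, a matricellular protein gene bound by YAP and TEAD, read 7.07, 5.999 and 5.64 on the wild-type arrays and 3.67, 3.59 and 3.89 on the Lats2-CKO arrays. The mutants were nearly equal and lay well below the wild types. The change was -2.52 ± 0.49 with an adjusted p of 0.15, -2.82 ± 0.53 without wild-type array 3, and -0.80 ± 0.49 on high-cholesterol diet. Ccn2, its relative, read 5.13, 4.40 and 5.15 against 4.12, 3.81 and 4.53 and overlapped, at -0.74 ± 0.38. Asap1 stood at -0.43 ± 0.18 and Afp, the fetal liver gene, at 0.28 ± 0.12. A promoter window was matched for 17 of the 23 targets, and 5 of them hold the TEAD word, beside 14.4% of all genes in the table. The window of Ccn1 is shown because it is the target that differed most and holds the word once, its first base lying 103 bases before the start. It runs on the minus strand of GRCm38.p6, at chr3:145649986-145650235, and comes from RefSeq, with the word in capitals.

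Ccn1: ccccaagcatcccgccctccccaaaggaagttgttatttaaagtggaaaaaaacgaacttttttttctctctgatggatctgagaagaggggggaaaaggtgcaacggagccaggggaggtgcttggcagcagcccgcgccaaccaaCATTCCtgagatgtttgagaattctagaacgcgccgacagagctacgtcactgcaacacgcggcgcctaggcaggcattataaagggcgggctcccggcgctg

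The match describes the letters and does not show that a factor was bound there in these livers.

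Markers of the liver's endothelium were lower in the mutants on the whole. Of 12 measured markers 10 were lower, 8 of them at an unadjusted p under 0.05 and 7 without overlap, and none was called. Over all genes 5.45% were lower at that p and 13.3% did not overlap in either direction. The count at that p was 6 without wild-type array 3. The median change was -0.56, and it was -0.58 without wild-type array 3, -0.49 and -0.52 within the higher and lower array sets. The mean level of the list was 7.27 to 7.31 on the wild-type arrays and 6.71 to 6.91 on the Lats2-CKO arrays, without overlap, and no marker was dim. Fcgr2b, the inhibitory Fc receptor of sinusoidal endothelium, read 8.70, 8.52 and 8.33 against 7.86, 7.28 and 7.76. All mutants were lower, at -0.88 ± 0.21. Oit3, a protein of the same cells, stood at -0.83 ± 0.20, Eng, a TGF-beta coreceptor, at -0.68 ± 0.19, and Stab2, which clears hyaluronan, at -0.62 ± 0.19. Pecam1 and Vwf, markers of endothelium in general and chosen after their values were seen, both stood at 0.03 and near 0 on either side under other settings. In bulk liver RNA, fewer cells of a type and less RNA per cell cannot be told apart.

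Macrophage and Kupffer cell markers were lower too, none of them called. Of 20 measured, 18 were lower, 6 of them at an unadjusted p under 0.05, beside 5.45% of all genes, and 9 did not overlap, beside 13.3%. At that p stood 3 without wild-type array 3. The mean level was 5.85 to 6.04 on the wild-type arrays and 5.42 to 5.58 on the Lats2-CKO arrays, and none was dim. With all arrays 1 marker was higher at that p. The median change was -0.39, -0.44 without wild-type array 3, and -0.42 and -0.37 within the higher and lower sets. Vsig4, a complement receptor of Kupffer cells, read 9.45, 9.61 and 9.82 against 9.01, 8.05 and 8.93. The mutants lay below the wild types, at -0.96 ± 0.30. Lyz2, the lysozyme of myeloid cells, read 8.58, 8.94 and 8.97 against 8.26, 7.57 and 7.54, at -1.04 ± 0.34. Cd5l, a secreted Kupffer cell protein, read 8.39, 9.13 and 9.20 against 7.77, 7.63 and 7.61, at -1.24 ± 0.45, and the tetraspanin gene Cd9 stood at -0.46 ± 0.14. The Kupffer cell lectin gene Clec4f, chosen after its values were seen, stood at -0.12 ± 0.13. Cd163, the haemoglobin scavenger receptor and also chosen after its values were seen, was higher, with 4.79, 3.88 and 2.93 against 4.36, 5.43 and 5.53 and a change of 1.24 ± 0.48. The part of these 2 cell types in any other difference was not tested.

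**Figure D3:**
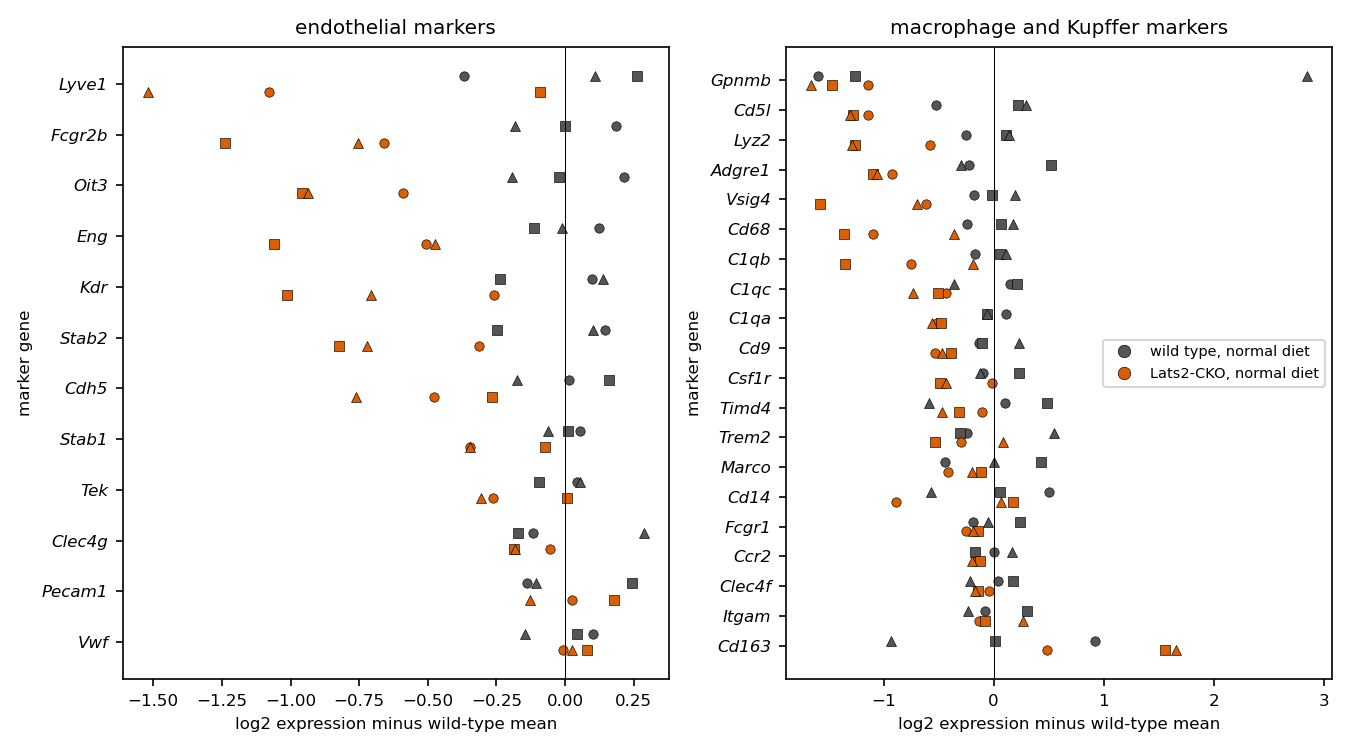
Log2 expression of each endothelial (left) and macrophage or Kupffer (right) marker on the normal-diet arrays, minus the wild-type mean of that gene, with a marker shape for each replicate. Most orange Lats2-CKO points lie left of 0, while Pecam1, Vwf and Clec4f lie near 0 and Cd163 to the right.

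Most other cell type lists had medians nearer 0. Those of the hepatocyte, stellate and myofibroblast, cholangiocyte, neutrophil, and T and NK cell lists were between -0.12 and 0.05, with only Serpina1a and Cd8b1 of these lists at an unadjusted p under 0.05. In these lists 6 of 10 neutrophil, 5 of 13 T and NK cell and 2 of 7 cholangiocyte markers were dim. Serpina1a stood at 0.49 ± 0.21 and Cd8b1 at -0.43 ± 0.16. B cell markers were lower in 8 of 9, with a median of -0.17, a mean level of 3.44 to 3.61 in wild types and 3.24 to 3.27 in mutants, and 3 of the 9 dim. All 8 MHC class II genes were lower, with a median of -0.38 that was -0.19 without wild-type array 3. No B cell marker and no MHC class II gene was at an unadjusted p under 0.05. The leading MHC class II gene, H2-Ab1, read 7.26, 7.87 and 8.23 against 6.74, 6.42 and 6.57 and stood at -1.21 ± 0.60. All 5 measured adipose markers were higher, with a median of 0.35, but only 0.096 without Lats2-CKO array 3, on which Retn read 4.92 where the other 5 arrays read 3.03 to 3.17. The mean level of the adipose list was 2.92 to 2.97 in wild types, under the dim level of 3.05. It was 2.96 to 3.61 in mutants, and 2 of the 5 markers were dim. Fibrosis and matrix genes had a median of -0.03 and 1 of 24 at an unadjusted p under 0.05, Col4a1 at 0.60 ± 0.23. The 28 cell cycle genes had a median of 0.01 and none at that p, or -0.06 and 1 lower without wild-type array 3.

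Enzymes that conjugate drugs and metabolites were lower in part. None of 30 was called, 10 were lower and none higher at an unadjusted p under 0.05, beside 5.45% of all genes that were lower, and the median was -0.15, or -0.07 without wild-type array 3. Gstm6 and Gstm4, glutathione transferases of the mu class, stood at -0.59 ± 0.15 and -0.65 ± 0.18. Gstm4 read 6.73, 6.67 and 6.83 against 6.51, 5.85 and 5.93, all mutants lower, while Sult1c2, a sulfotransferase, read 4.65, 5.27 and 6.48 against 4.84, 3.67 and 3.81 and overlapped, at -1.36 ± 0.41. Mgst3, a microsomal transferase, stood at -0.63 ± 0.19. Sult1c2 was at -0.85 and Mgst3 at -0.41 without wild-type array 3. The mu-class genes lie close together and are alike in sequence, so values of single ones are uncertain. Cytochromes P450 of families 1 to 3 were lower in 29 of 38, 5 of them at an unadjusted p under 0.05, but the list's level on wild-type array 3 was 0.66 above the mean of the 6 arrays, and its median went from -0.18 to -0.08 without that array, with 4 lower and 4 higher at that p. Cyp2c38 stood at -1.80 ± 0.50, Cyp2c23 at -0.71 ± 0.19, Cyp3a11 at -0.59 ± 0.24 (-0.37 without array 3) and Cyp2c69 at -0.73 ± 0.30, with the same doubt about near-identical relatives.

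Fatty acid oxidation leaned lower as well. Of 27 targets of PPAR alpha and enzymes of oxidation, 7 were lower and 1 higher at an unadjusted p under 0.05. Over all genes 5.45% were lower and 3.54% higher at that p. None of the 27 was called, and the median was -0.13, or -0.11 without wild-type array 3. The acyl-CoA thioesterase gene Acot1 read 5.82, 6.31 and 6.16 against 4.80, 4.39 and 5.40, and Acot2 read 8.15, 8.25 and 8.43 against 6.34, 6.71 and 7.71. Both were lower on all mutant arrays, at -1.24 ± 0.28 and -1.36 ± 0.35, and as close relatives in sequence their single values are uncertain. Crat, carnitine acetyltransferase, stood at -0.67 ± 0.19 and Slc25a20, the carnitine carrier of mitochondria, at -0.47 ± 0.13. The respiratory chain had 6 of 28 members lower and none higher at that p (4 lower without wild-type array 3), with a small median of -0.12, led by Atp5j at -0.37 ± 0.11 and Ndufb5 at -0.36 ± 0.13. In glucose metabolism 13 of 20 were lower, with a median of -0.15 that was -0.02 without wild-type array 3. At an unadjusted p under 0.05 4 were lower, or 3 without that array: Pdk2, a brake on pyruvate dehydrogenase, at -0.81 ± 0.22, Irs1, the insulin receptor substrate, at -1.01 ± 0.30, G6pc, the last step of glucose output, at -1.46 ± 0.48, and Pygl, the liver's glycogen phosphorylase, at -0.31 ± 0.14.

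Bile acid genes were lower in 17 of 26, 5 of them at an unadjusted p under 0.05, beside 5.45% of all genes. None was called, and the median was -0.13, or -0.21 without wild-type array 3. After Klb came Cyp27a1, a hydroxylase of bile acid synthesis, at -0.44 ± 0.12, Abcc3, an exporter, at -0.83 ± 0.24, and Slc27a5, which couples bile acids to CoA, at -0.39 ± 0.12. Cyp7a1, which sets the pace of bile acid synthesis from cholesterol, read 10.23, 10.69 and 3.80 against 9.68, 6.64 and 7.42. Cyp8b1, which sets the cholic acid share, read 10.23, 9.83 and 3.29 against 9.48, 8.81 and 9.26. Wild-type array 3 was below every other normal-diet array in both and within the range of the high-cholesterol arrays, which read 3.71 to 6.48 for Cyp7a1 and 3.08 to 5.27 for Cyp8b1. With it the changes were -0.33 ± 1.54 and 1.40 ± 1.45, and without it -2.55 ± 0.88 and -0.85 ± 0.58, at adjusted p-values of 0.38 and 0.72.

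Sterol synthesis looked higher with all arrays and not without wild-type array 3. Of its 20 genes 15 were higher, 5 of them at an unadjusted p under 0.05, beside 3.54% of all genes. None was called, and the median was 0.25. Without that array the median was -0.04, with 1 higher and 2 lower at that p. The list's mean level on wild-type arrays 1, 2 and 3 was 0.53, -0.24 and -1.01 from the mean of the 6 arrays, and 0.04, 0.48 and 0.19 on the mutants. On the high-cholesterol arrays it was -1.34 to -0.92, a range that holds wild-type array 3. Sqle, squalene epoxidase, read 7.97, 7.005 and 2.55 against 7.96, 8.70 and 8.32, at 2.49 ± 1.02 and, without array 3, 0.84 ± 0.26. Cyp51 and Msmo1, which demethylate sterols, stood at 1.33 ± 0.44 and 1.58 ± 0.56, and at 0.88 ± 0.40 and 0.83 ± 0.38 without array 3. Dhcr7, the last reductase, stood at 0.76 ± 0.25 and Hmgcs1, an early enzyme, at 0.78 ± 0.36. The groups overlapped in Sqle, Cyp51, Msmo1 and Hmgcs1, and 1 gene of the list did not overlap. The SREBP genes Srebf1 and Srebf2 stood at -0.78 ± 0.47 and 0.21 ± 0.36, and at -0.46 and -0.17 without array 3. Sterol export under LXR was the mirror image, with 11 of 14 lower and a median of -0.36. At an unadjusted p under 0.05 5 were lower and 1 higher, beside 5.45% of all genes lower and 3.54% higher. Without array 3 the median was 0.00, with 2 lower and 1 higher at that p. Mylip, which degrades the LDL receptor, stood at -0.84 ± 0.32 and Abcg1, a cholesterol exporter, at -1.29 ± 0.55, or at -0.56 and -0.75 without array 3. Lcat, which esterifies cholesterol in plasma, stood at -0.35 ± 0.13 and Scarb1, the HDL receptor, at 0.38 ± 0.17. Abcg5, a subunit of the sterol pump of bile, read 8.60, 8.36 and 10.45 against 8.85, 8.21 and 8.54, so that its -0.61 ± 0.42 became 0.05 ± 0.18.

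Chaperones of the endoplasmic reticulum showed the same dependence. Of 31 genes 24 were higher and none was called. At an unadjusted p under 0.05 2 were higher and 1 lower, beside 3.54% and 5.45% of all genes. The median was 0.25, and without wild-type array 3 it was -0.01, with none higher and 3 lower at that p. Hspa5, the main chaperone BiP, read 10.47, 10.53 and 8.97 against 10.08, 10.23 and 10.04, so that 0.12 ± 0.33 with all arrays stood against -0.39 ± 0.13 without array 3. Xbp1, a factor of the unfolded protein response, stood at 0.68 ± 0.23, Dnajb11, a BiP cochaperone, at 0.84 ± 0.38, or 0.28 ± 0.19 without array 3, and Atf4, a factor of the stress response, at -0.34 ± 0.12. Heat shock chaperones were higher in 11 of 17, with a median of 0.36 that was 0.25 without array 3. At an unadjusted p under 0.05 4 were higher and 1 lower with all arrays, but 2 higher and 4 lower without array 3. Hspa4l was at 0.82 ± 0.24, Hsp90aa1 at 0.56 ± 0.20 and Hspe1 at 0.60 ± 0.22, while the inducible Hspa1a was at -1.06 ± 0.39.

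In lipid storage single genes differed more than their lists. Lpin1, the phosphatidate phosphatase that makes diacylglycerol, read 8.81, 8.75 and 9.78 against 10.30, 10.62 and 10.90, with all mutants higher and a change of 1.496 ± 0.39. Cidec, which enlarges lipid droplets, read 7.08, 7.43 and 6.62 against 8.07, 8.82 and 9.18, also without overlap, at 1.65 ± 0.53. Agpat2, an acyltransferase of the same route as Lpin1, read 10.32, 10.14 and 9.94 against 9.65, 8.30 and 9.26, at -1.06 ± 0.29. Adjusted p-values of the 3 were 0.25 to 0.33. Scd1, the stearoyl-CoA desaturase, stood at -0.58 ± 0.23, Fasn, fatty acid synthase, at 0.13 ± 0.26 and Plin2, a droplet coat protein, at 0.14 ± 0.23. Synthesis genes had a median of -0.05 and lipid droplet genes of -0.18, and without wild-type array 3 these were -0.10 and -0.04.

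Genes of the acute phase list were higher in 21 of 26, and none was called. At an unadjusted p under 0.05 5 were higher and 1 lower, beside 3.54% and 5.45% of all genes. Without wild-type array 3 the median of 0.22 was 0.08 and 3 were higher at that p. Saa4, a constitutive serum amyloid A, stood at 0.57 ± 0.13, and Stat3, the factor downstream of interleukin-6, at 0.80 ± 0.26. Lcn2, lipocalin, read 6.602, 6.49 and 5.39 against 7.23, 8.47 and 9.34, and Mt1, metallothionein, 6.99, 7.82 and 7.31 against 8.35, 9.96 and 9.76. The mutants were higher without overlap but spread over more than a log2 unit, at 2.19 ± 0.92 and 1.98 ± 0.70. The neutrophil chemokine Cxcl1 read 4.51, 4.67 and 3.57 against 5.68, 7.19 and 7.30, at 2.48 ± 0.58, while Ccl5 read 5.52, 5.22 and 5.59 against 4.25, 4.38 and 4.70, at -1.002 ± 0.36. The neutrophil markers had a median of 0.05, with none of 10 at an unadjusted p under 0.05, but 6 of the 10 were dim. In complement and coagulation 16 of 27 were higher, with a median of 0.03. At an unadjusted p under 0.05 4 were higher, or 2 without wild-type array 3: F11, a clotting factor, at 1.09 ± 0.27, C6 at 0.60 ± 0.23, C8a at 0.28 ± 0.11 and Hc, complement C5, at 0.27 ± 0.11. No interferon-stimulated gene of 21 reached that p.

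Genes that male livers express more were higher in 15 of 22, with a median of 0.24. At an unadjusted p under 0.05 5 were higher and 1 lower, beside 3.54% and 5.45% of all genes. Without wild-type array 3 the median was 0.22 and 2 were higher at that p. With all arrays, beside Moxd1, C6 and C8a, the higher ones were Serpina12, the adipokine vaspin, with 4.18, 3.38 and 3.88 against 5.02, 5.45 and 4.83 and a change of 1.29 ± 0.23, and Egfr, the EGF receptor, at 0.82 ± 0.33. Female-biased genes had a median of -0.15, or -0.03 without array 3. Of the clock, Nr1d1, which encodes the repressor REV-ERB alpha, read 8.63, 8.36 and 9.16 against 7.91, 7.77 and 7.78, all mutants lower, at -0.90 ± 0.19. Nr1d2, its relative, went the other way at 0.57 ± 0.20, as did their counterpart Rora at 0.56 ± 0.21, and Per1 stood at -0.70 ± 0.26. The labels give no time of day for the samples. Among nuclear receptors Nr2f2 stood at -0.90 ± 0.21, Rara at -0.66 ± 0.19, Rxrg at -0.56 ± 0.19 and Thrb at 0.37 ± 0.10.

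Of 24 genes of p53 and its targets none was called, and the median was -0.05. At an unadjusted p under 0.05 3 were lower, beside 5.45% of all genes. They were Plk2, with 5.05, 5.01 and 5.53 against 4.23, 4.30 and 4.33 and a change of -0.91 ± 0.24, Ei24 at -0.54 ± 0.16 and Tigar at -0.31 ± 0.13. Cdkn1a, which encodes the cell cycle inhibitor p21, read 6.83, 7.60 and 6.25 against 4.41, 7.41 and 7.31 and overlapped, and Mdm2, the ubiquitin ligase of p53, stood at -0.04 ± 0.13. By position in the lobule, the medians were 0.01 for pericentral and -0.20 for periportal genes, and -0.13 and -0.08 without array 3. Single genes were Tbx3, a Wnt target near the central vein, at -1.29 ± 0.39, Rnf43, which damps Wnt receptors, at -0.71 ± 0.23, and the periportal Hal, histidine ammonia lyase, at -0.98 ± 0.21 and Mfsd2a, a lysolipid carrier, at -1.49 ± 0.50. NRF2 targets had a median of -0.05, or -0.08 without array 3, with Nfe2l2, which encodes NRF2, at -0.41 ± 0.15 and the targets Txnrd1 and Srxn1 at 0.52 ± 0.23 and 0.61 ± 0.27, or 0.36 and 0.39 without array 3.

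**Figure D4:**
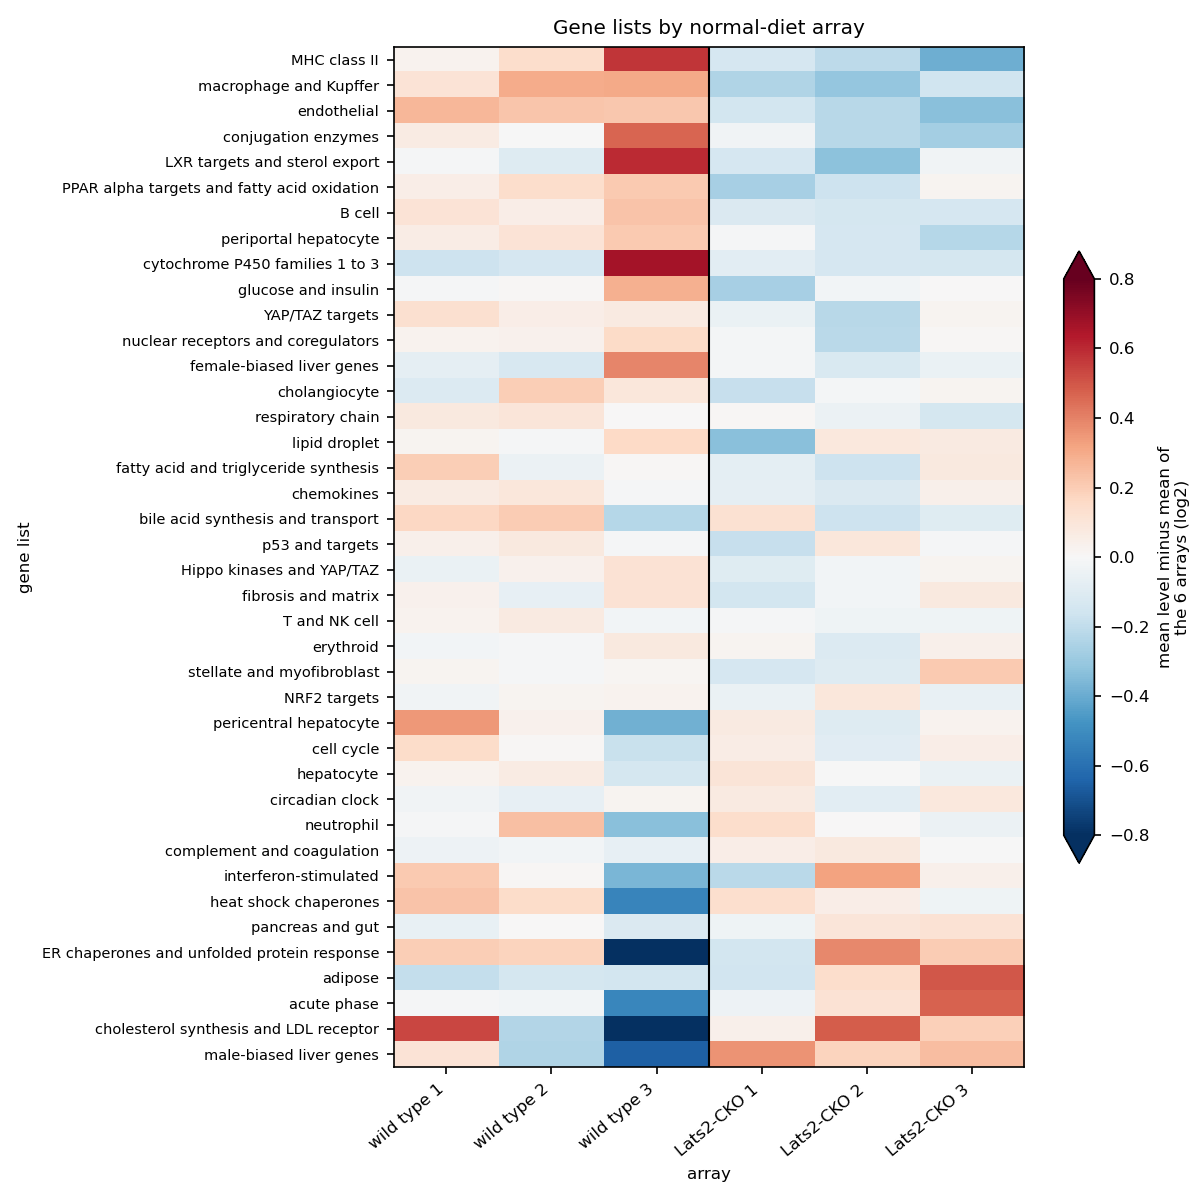
Mean level of each gene list on the 6 normal-diet arrays, relative to the mean of those arrays (log2, red higher), ordered by the mean difference between genotypes. Endothelial and macrophage lists are red on all 3 wild-type arrays and blue on all 3 Lats2-CKO arrays, while sterol synthesis (-1.01) and endoplasmic reticulum chaperones (-0.82) are lowest on wild-type array 3 alone.

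The genotypes differed less on high-cholesterol diet than on normal diet by the count of genes, though such counts are no test of the difference. There limma called no gene, with or without moderation of the variance, and 650 genes (2.93%) had an unadjusted p under 0.05. Without wild-type high-cholesterol array 3 it called 22. Tested directly, the genotype change differed between the diets in 1 gene, Capn8 (0.00451% of those tested). It read 2.90, 3.15 and 3.15 in wild types and 3.31, 3.08 and 3.37 in mutants fed high cholesterol, a change of 0.19 ± 0.16, so that the difference between diets was -2.70 with an adjusted p of 0.00293. Without moderation no gene passed this test. For Zfand4 and E030018B13Rik the changes on high-cholesterol diet were -0.05 ± 0.14 and 0.03 ± 0.29, and the differences of -1.62 and -3.07 missed the threshold at adjusted p-values of 0.072 and 0.081. Moxd1, Scara5, Klb and Ddah1 stood at 0.72 ± 0.90, 0.56 ± 0.36, 0.11 ± 0.14 and 0.17 ± 0.26 there, with adjusted p-values of the difference of 0.60 to 0.75. The median changes of the endothelial and macrophage lists were negative there too, at -0.50 and -0.71. No member's change was called as different between the diets. Relative to the mean of the normal-diet arrays, the endothelial list's mean level was 0.18, 0.29 and 0.10 in wild types fed high cholesterol. In mutants it was -0.10, -0.42 and -0.22, without overlap. The macrophage list overlapped, with 1.46, 1.59 and 0.39 in wild types against 0.08, 0.50 and 0.70 in mutants.

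**Figure D5:**
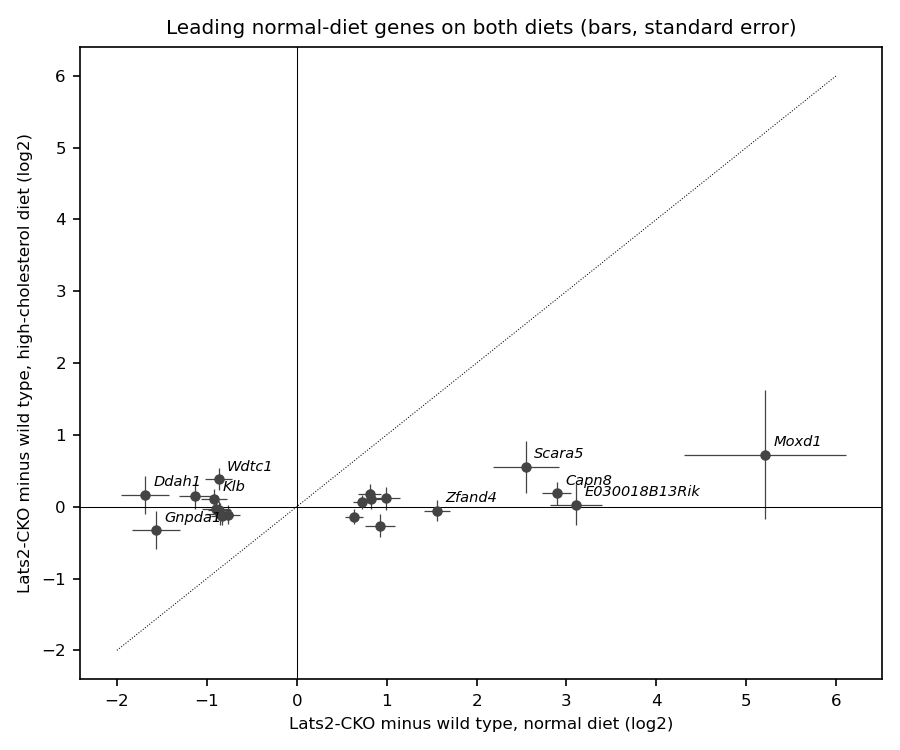
Change by genotype (log2, Lats2-CKO minus wild type, bars are standard errors) on normal diet against that on high-cholesterol diet, for the 20 leading genes of the naming rule and E030018B13Rik. The genes were chosen for their normal-diet change, and on the vertical axis they lie below 1 (Moxd1 is highest, at 0.72), off the dotted line of equal change.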

How the data were processed

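RNA from whole liver was hybridised to 12 arrays. The authors deposited log2 expression values made by RMA with Partek 6.6, per the submitters' processing notes, so background and probe effects were already treated. Of 41345 probe sets, 23521 carry 1 gene symbol and gave 22180 genes. For 1082 genes with several probe sets the brightest was used. In R 4.3.3, limma 3.58.1 fitted 4 group means over 12 arrays, with moderated variances and Benjamini-Hochberg adjustment over all genes, at a threshold of 0.05. Adjusted p-values here come from that fit unless another is named. The number of arrays limits the precision.

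Groups follow the labels. Named genes were the 15 largest called changes a direction, filled to 10 with the smallest p at 1.5-fold or more, with and without wild-type array 3, up to 4 members a list by p, and a set always named. Ranking by size or p skipped genes with only predicted or clone names. The members and lists were chosen with earlier results of these data known. Alternatives were array sets or replicate numbers as a block, other priors, weights, filters, probe set rules, normalisations, and each array left out.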

Additional observations from a re-analysis of the deposited data

Results flagged for a closer look

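Capn8 stood out because its genotype change differed between the diets in a direct test: the difference, high-cholesterol minus normal diet, was -2.70 with an adjusted p of 0.00293.

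In 4 other named genes every Lats2-CKO array lay on one side of all wild-type arrays on normal diet. On high-cholesterol diet every Lats2-CKO array lay on the other side. On normal diet alone the groups did not overlap in 13.3% of all genes. The share of all genes that changed sides between the diets is not given here. The difference between the diets was 1.14 for Gstm4, a glutathione transferase, 0.51 for Prf1, the perforin gene of cytotoxic lymphocytes, -1.19 for Taf2 and -0.78 for Usp14. Their adjusted p-values for it were 0.71, 0.76, 0.60 and 0.60, none past the threshold. Prf1 read 3.16 to 3.35 on the normal-diet arrays, near the dim level of 3.05.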

How the results depend on the processing

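The count of genes called on normal diet, 3 with all arrays, was 1 with only the groups compared or without moderation, 11 with a block for the array sets (8 higher, 3 lower), 5 with a trended and robust prior, 5 with only the 5 normal-diet arrays other than wild-type array 3, and 5 with only the higher array set. It was 3 to 17 with each array left out in turn. With the replicate block it was 3 as well. With the replicate block and wild-type array 3 left out, an alternative chosen after seeing the data, it was 6. Same-numbered arrays of the 2 genotypes deviated together at r = 0.089, 0.084 and 0.143, and each array correlated best with its own number, a hint from the data that does not establish pairing. On high-cholesterol diet the count was 0 to 22 with each array left out. For the difference between the diets, 1 with all arrays, it was 2 with a block for the array sets or a trended and robust prior, 3 with dim genes left out, 0 without moderation, 0 with the replicate block and wild-type array 3 left out, and 1 to 2 with each array left out. Lats2 kept its direction throughout. The causes of these shifts were not tested.

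Of 152 single genes other than Lats2 under 26 alternatives, 13 changed sign under at least 1, none of them called. With array weights, Hspa5 was at -0.139, Pecam1 at -0.0413 and Vwf at -0.0012. With quantile normalisation, Mdm2 was at 0.0275. With only the 5 normal-diet arrays other than wild-type array 3, Abcg5 was at 0.0476, Cyp8b1 at -0.85, Fasn at -0.0679, Hspa5 at -0.39, Pecam1 at -0.0276, Srebf2 at -0.174, Vwf at -0.0406 and Wwtr1 at 0.0726. With only the higher array set, Abcg5 was at 0.0449, Cyp8b1 at -0.89, Fasn at -0.0209, Hspa5 at -0.35, Lats1 at -0.0333, Srebf2 at -0.20 and Vwf at -0.0374. With the replicate block and wild-type array 3 left out, Abcg5 was at 0.0588, Cyp8b1 at -0.82, Fasn at -0.0178, Hspa5 at -0.40, Srebf2 at -0.21, Vwf at -0.0076 and Wwtr1 at 0.0103. With each array left out in turn, the values ran from -0.997 to 0.0476 for Abcg5, -1.04 to 0.46 for Cdkn1a, -2.55 to 0.90 for Cyp7a1, -0.85 to 2.62 for Cyp8b1, -0.0679 to 0.36 for Fasn, -0.39 to 0.39 for Hspa5, -0.0522 to 0.142 for Lats1, -0.0995 to 0.0535 for Mdm2, -0.0516 to 0.147 for Pecam1, -0.0459 to 0.38 for Plin2, -0.174 to 0.56 for Srebf2, -0.0406 to 0.0833 for Vwf and -0.28 to 0.0726 for Wwtr1.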

Other observations

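Some of the widest differences lay in genes that no list or naming rule held, chosen here after their values were seen. Lipg, the endothelial lipase of HDL metabolism, read 7.60, 6.61 and 6.29 on the wild-type arrays and 4.19, 3.44 and 3.71 on the Lats2-CKO arrays. All mutants were far lower, at -3.05 ± 0.62 with an adjusted p of 0.19, and on high-cholesterol diet the change was -0.63. Bcl6, a transcriptional repressor, read 8.56, 8.50 and 7.82 against 5.34, 5.41 and 5.85, likewise without overlap, at -2.76 ± 0.53 with an adjusted p of 0.15, beside -0.03 on high-cholesterol diet. Foxq1, a forkhead factor, read 5.11, 4.71 and 5.33 against 7.74, 7.38 and 7.04, and was higher on every mutant array, at 2.34 ± 0.79. Cyp4b1, a P450 outside families 1 to 3, read 7.09, 6.75 and 6.597 against 5.48, 4.90 and 5.27, at -1.60 ± 0.30, and was also lower on high-cholesterol diet, at -0.94. None of the 4 was called with all arrays.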
